A study of Mus musculus with 6 samples.

Results

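Neutrophil granule and alarmin genes were examined in total RNA of the mouse cervical spinal cord: 10 genes named by their mouse symbols, out of 54532 Ensembl identifiers. They were the alarmins S100a8 and S100a9, the granule genes Ngp, Camp, Ltf, Retnlg, Mmp8 and Mmp9, and the receptors Csf3r and Cxcr2. All 10 symbols matched 1 identifier each. The study held 6 libraries from C57BL/6 mice, labelled as biological replicates: 3 with allergic contact dermatitis (ACD) and 3 controls. Each library was taken as 1 mouse, which the labels do not state. In the ACD mice squaric acid dibutylester (SADBE, a contact allergen) at 1% in acetone, 20 µl a day, was painted on the shaved abdomen for 3 days and, after 5 days, on the shaved nape for 3 days. In the controls the nape was painted with acetone alone, and the labels leave unclear whether their abdomen had been painted with SADBE as well. The question was which transcripts of the cord segments that supply the nape differ when its skin is inflamed. The labels used here give neither age nor sex.

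Neutrophils are short-lived white cells made in the bone marrow, and they carry their antimicrobial and matrix-cutting proteins ready-made in granules. The genes of the granule proteins are transcribed in waves during maturation in the marrow: those of the azurophil granules first, in promyelocytes, then those of the specific granules such as Ltf, Camp and Ngp. S100a8 and S100a9 fill the cytosol of the mature cell, and when released their proteins act as alarmins, that is, danger signals for other cells. The parenchyma of a healthy cord holds few neutrophils, while the blood in its vessels carries them. In bulk RNA, more neutrophils and more RNA per neutrophil cannot be told apart.

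The values were FPKM (fragments counted on a gene, relative to its exon length and to the library's total), with a depth behind them of 17346315 to 20245576 reads in the ACD libraries and 16916600 to 18583992 in the controls. Cord markers were high in every library: the neuronal gene Snap25 stood at 379 to 381 FPKM in ACD and 324 to 375 in control cords, and the myelin gene Mbp at 2813 to 3369 and 1892 to 2887. Control 2 carries much of what follows. By rank correlation over the 21369 genes tested it did not stand apart. Its values were 0.957 to 0.961 to the ACD libraries and 0.959 to 0.964 to the other controls. The range among the ACD libraries was 0.976 to 0.977. Such a correlation cannot show whether a library differs in a small set of genes. The summed FPKM of all genes was 299956 in control 2, 279996 in control 1 and 281560 in control 3. In the ACD libraries it was 297035 to 313140. Genes above 0 numbered 25870 in control 2, 24982 to 25370 in the other controls and 23511 to 24194 in ACD libraries. Of the 21369 genes, 927 passed an adjusted p of 0.05 in limma, 386 higher and 541 lower in ACD. These make up 4.34% in either direction and 1.81% in the higher direction. After scaling each library to TPM (a scaling to the same summed expression in each library) the split was 208 higher and 704 lower. With 1 library left out the count of 927 became 274 without ACD 1, 287 without ACD 2, 180 without ACD 3, 244 without control 1, 579 without control 2 and 627 without control 3. Of 12 cord markers 1 passed: Gfap, the filament protein of astrocytes (0.48; limma, adjusted p = 0.0332), which was not called after TPM scaling (adjusted p = 0.0513), with the haemoglobin covariate (0.276) or without any 1 library other than control 2 (0.0601 to 0.123).

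The genes lie close together on the chromosomes in part. S100a8 (chr3:90668978-90670035, plus strand) and S100a9 (chr3:90692632-90695721, minus strand) are 22.6 kb apart in GRCm38. On chromosome 9, Camp (chr9:109847379-109849617) lies 570 kb from Ngp (chr9:110419747-110423012), which lies 596 kb from Ltf (chr9:111019271-111042767). Mmp8 is on chromosome 9 as well, at chr9:7558456-7568485. No annotated gene of GENCODE M21 overlaps any of the 10, on either strand. None of the 50-base words of S100a8, S100a9, Ngp, Camp, Ltf, Retnlg, Mmp8 or Mmp9 transcripts occurs in another gene's transcripts. For Csf3r 10.7% and for Cxcr2 6.7% of the words do, so their values are less certain.

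The promoters of S100a8, S100a9, Ngp, Camp and Ltf are shown because these 5 genes kept together from library to library in the values below. Each run covers 250 bases before the RefSeq start and 30 from it (GRCm38.p6, RefSeq), 5′ to 3′ on the strand of the gene. Capitals mark matches on either strand to TTNCNNAA, a form of the C/EBP site, to GAGGAA, a form of the PU.1 site, and to the TATA box TATAAA. C/EBP and PU.1 proteins drive granulocyte genes. Their positions are chr3:90668821-90669100 (plus) for S100a8, chr3:90695692-90695971 (minus) for S100a9, chr9:110419558-110419837 (plus) for Ngp, chr9:109849427-109849706 (minus) for Camp and chr9:111019042-111019321 (plus) for Ltf.
S100a8: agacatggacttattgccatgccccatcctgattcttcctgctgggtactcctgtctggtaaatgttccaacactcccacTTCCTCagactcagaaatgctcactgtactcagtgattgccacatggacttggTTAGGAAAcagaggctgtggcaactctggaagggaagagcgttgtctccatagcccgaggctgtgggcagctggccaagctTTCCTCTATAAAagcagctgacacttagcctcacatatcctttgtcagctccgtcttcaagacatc
S100a9: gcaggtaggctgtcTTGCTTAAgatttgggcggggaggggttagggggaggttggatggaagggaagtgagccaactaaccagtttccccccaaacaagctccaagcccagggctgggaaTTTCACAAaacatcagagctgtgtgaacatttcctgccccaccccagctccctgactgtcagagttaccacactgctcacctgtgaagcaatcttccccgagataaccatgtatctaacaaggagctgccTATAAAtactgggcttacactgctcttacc
Ngp: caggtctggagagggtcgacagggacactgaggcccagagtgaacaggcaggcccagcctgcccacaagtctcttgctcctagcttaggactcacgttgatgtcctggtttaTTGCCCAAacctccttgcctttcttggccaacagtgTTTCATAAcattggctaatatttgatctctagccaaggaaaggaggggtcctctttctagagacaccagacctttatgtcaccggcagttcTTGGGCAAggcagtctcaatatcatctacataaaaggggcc
Camp: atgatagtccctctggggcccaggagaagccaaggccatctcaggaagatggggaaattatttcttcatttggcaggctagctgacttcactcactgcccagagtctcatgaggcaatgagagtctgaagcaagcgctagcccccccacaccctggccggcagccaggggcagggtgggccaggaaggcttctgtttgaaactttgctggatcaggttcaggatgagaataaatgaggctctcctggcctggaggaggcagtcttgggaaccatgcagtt
Ltf: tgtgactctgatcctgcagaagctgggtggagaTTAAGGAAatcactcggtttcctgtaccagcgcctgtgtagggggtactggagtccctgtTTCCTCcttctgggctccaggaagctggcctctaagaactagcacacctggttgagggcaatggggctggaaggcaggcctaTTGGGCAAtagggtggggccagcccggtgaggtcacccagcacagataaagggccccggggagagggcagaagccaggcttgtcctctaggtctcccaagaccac
In S100a8 a GAGGAA match on the other strand directly precedes the TATA box, without overlap. In S100a9 the TATA box begins at the annotated start itself. Ngp holds 3 and Ltf 2 matches to TTNCNNAA, and Camp holds none of the 3 motifs in this window. Promoters were found for 9 of the 10 genes (not for Mmp9), and TTNCNNAA occurred in 6 of the 9, against 39.3% of all 32851 promoter windows of this length. GAGGAA occurred in 5 of 9, against 26.0%, and TATAAA in 3 of 9, against 13.1%. A match is a description of the letters and was not tested as a binding site.

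The alarmins were the most abundant of the 10 genes. S100a8, which pairs with S100a9 in a calcium-binding complex that also holds zinc and manganese, had 36.5, 31.0 and 42.1 FPKM in ACD 1 to 3, against 8.43, 26.1 and 6.73 FPKM in controls 1 to 3. Every ACD value lay above every control value, but control 2 was 3.10 times control 1 and 3.88 times control 3. The group means were 36.6 ± 5.56 and 13.8 ± 10.7 FPKM (SD, n = 3 each), a log2 difference of 1.66 (SE 0.48) on the log2(FPKM + 0.1) scale. This did not pass over all genes tested (limma, adjusted p = 0.106). S100a9 had 44.1, 44.8 and 54.2 FPKM in ACD cords, against 11.9, 55.9 and 12 in control cords. Its highest value of all 6 was thus that of control 2, 4.70 times that of control 1, and the groups overlapped. The log2 difference of 1.24 (SE 0.58) did not pass (limma, adjusted p = 0.263).

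The granule genes Ngp, Camp and Ltf followed the same library pattern. Ngp, a cathelicidin-related granule protein of mouse neutrophils, had 12, 9.46 and 14.4 FPKM in ACD 1 to 3, against 2.37, 12.3 and 3.73 in controls 1 to 3. Camp, the precursor of the antimicrobial peptide cathelicidin, had 6.31, 4.82 and 6.71 FPKM in ACD cords, against 1.79, 8.02 and 0.989 in control cords. Ltf, lactoferrin, which withholds iron from microbes, had 2.89, 2.49 and 3.23 FPKM in ACD cords, against 0.565, 2.65 and 0.685 in control cords. In each of the 3 genes control 2 lay within or above the ACD range, while controls 1 and 3 lay below every ACD value. The log2 differences were 1.28 (SE 0.56) for Ngp, 1.23 (SE 0.68) for Camp and 1.39 (SE 0.51) for Ltf, and none passed (limma, adjusted p = 0.237, 0.341 and 0.174).

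**Figure D1:**
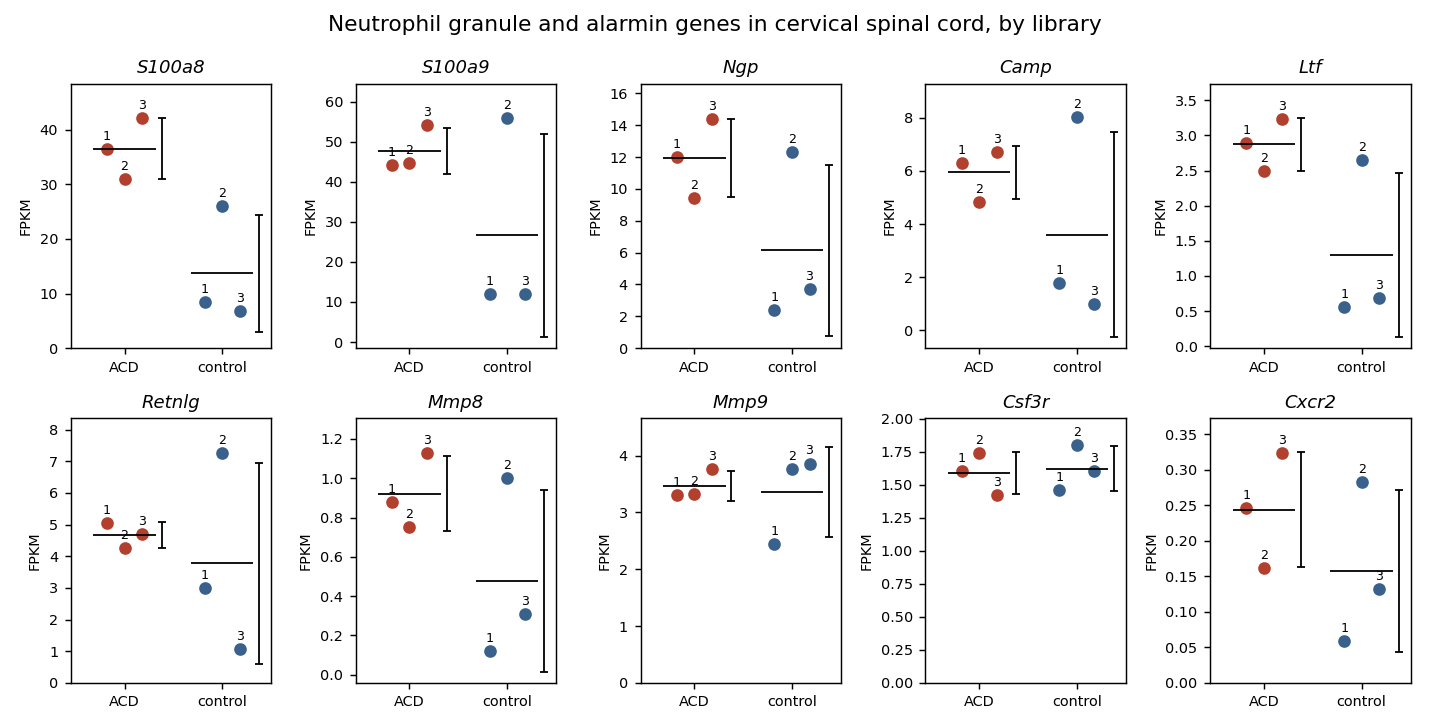
FPKM of the 10 genes in each library (points, numbered by replicate; ACD left, control right), with the group mean (line) and SD (bar, n = 3 each). Control 2 lies with or near the ACD libraries for 8 genes, for example at 55.9 FPKM of S100a9, while Csf3r spans 1.42 to 1.80 FPKM over all 6 libraries and Mmp9 2.44 to 3.86.

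The other granule genes, Retnlg, Mmp8 and Mmp9, were less uniform. Retnlg, a resistin-like protein of mouse neutrophils, had 5.06, 4.25 and 4.70 FPKM in ACD cords, against 2.99, 7.26 and 1.07 in control cords, with a log2 difference of 0.67 (95% interval -0.75 to 2.10). Mmp8, the neutrophil collagenase, had 0.880, 0.754 and 1.13 FPKM in ACD cords, against 0.122, 0.999 and 0.309 in control cords. These are 37, 37 and 50 reads in ACD libraries and 5, 45 and 13 in controls, and the log2 difference was 1.12 (SE 0.54; limma, adjusted p = 0.277). Control 2 had the highest Retnlg of all 6 libraries and the second highest Mmp8. From highest to lowest, Mmp8 ordered the 6 libraries as Ngp did. Mmp9, gelatinase B, which motor neurons also make, had 3.31, 3.32 and 3.77 FPKM in ACD cords, against 2.44, 3.76 and 3.86 in control cords. Its log2 difference of 0.07 had a 95% interval of -0.35 to 0.49 and became -0.02 after TPM scaling, so no direction was shown.

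Of the receptors, Csf3r, the receptor for the neutrophil growth factor G-CSF, which mouse microglia also express, had 1.60, 1.74 and 1.42 FPKM in ACD cords, against 1.46, 1.80 and 1.60 in control cords. The log2 difference was -0.03 with a 95% interval of -0.35 to 0.29. Cxcr2, the chemokine receptor that draws neutrophils into tissue, had 0.246, 0.162 and 0.323 FPKM in ACD cords, against 0.0582, 0.282 and 0.132 in control cords. Behind these stood 13, 10 and 18 reads in ACD libraries and 3, 16 and 7 in controls (log2 difference 0.48, SE 0.42; limma, adjusted p = 0.545).

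With all 6 libraries none of the 10 genes passed, and 2 of them, S100a8 and Ltf, had an unadjusted p under 0.05. With voom on reads recovered from the FPKM none passed and 3 had an unadjusted p under 0.05. The median log2 difference of the 10 was 1.17, beside -0.01 for all genes tested, and 9 of 10 were above 0. That median was 0.74 without control 1 and likewise without control 3, 1.85 without control 2, 0.66 with a pseudocount of 1 and 0.69 with haemoglobin as a covariate. The Camp difference was 0.61 without control 3, and those of Ngp and Mmp8 were 0.79 and 0.59 without control 1. Cxcr2 stood at 0.18 without control 1 and 0.32 without ACD 3, and Retnlg at -0.00377 without control 3. Groups without overlap and ACD on the higher side were seen in 1 of the 10 (S100a8), beside 13.1% of all genes tested. Without control 2, 5 of the 10 were called higher, beside 1.38% of all genes, and these were S100a8 (2.25, SE 0.16, adjusted p = 0.0168), S100a9 (1.98, SE 0.10, adjusted p = 0.00880), Ngp (1.95, adjusted p = 0.0289), Camp (2.06, adjusted p = 0.0303) and Ltf (2.03, adjusted p = 0.0190). Leaving out any of the other 5 libraries gave no call among the 10. The result therefore rests on whether control 2 is counted, and no label sets that library apart.

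**Figure D2:**
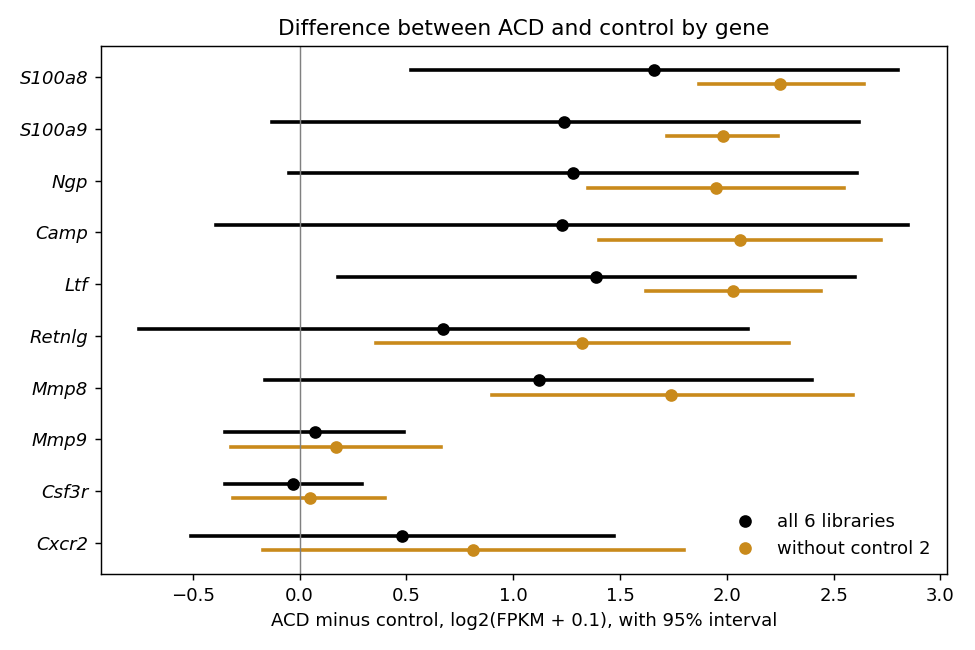
ACD minus control for each gene in log2(FPKM + 0.1), with its 95% interval from limma, for all 6 libraries (black) and without control 2 (ochre). The S100a9 difference is 1.24 with all libraries and 1.98 without control 2; Mmp9 and Csf3r stay near 0 in both.

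Among themselves, S100a8, S100a9, Ngp, Camp and Ltf kept nearly fixed proportions in the ACD libraries. Ltf per S100a8 was 0.0791, 0.0803 and 0.0767 in ACD 1 to 3, against 0.0671, 0.101 and 0.102 in controls 1 to 3. Ngp per S100a8 was 0.329, 0.305 and 0.342 in ACD cords, against 0.281, 0.472 and 0.554 in control cords. Over all 6 libraries the highest ratio to S100a8 was 1.52 times the lowest for Ltf, 1.77 times for S100a9, 1.97 times for Ngp and 2.09 times for Camp, although their FPKM spanned 4.70-fold to 8.11-fold. For Mmp9 and Csf3r it was the other way round: their FPKM spanned 1.58-fold and 1.27-fold, and their ratios to S100a8 6.42-fold and 7.03-fold. S100a8 made up 32.4%, 30.2% and 31.9% of the summed FPKM of the 10 genes in ACD cords, against 26.3%, 21.9% and 21.6% in control cords. The share of S100a8 thus lay above that of all 3 controls, control 2 included, in every ACD library. S100a9 per S100a8 was 1.21, 1.44 and 1.29 in ACD cords, against 1.41, 2.14 and 1.79 in control cords, so control 1 lay within the ACD range. These shares were looked at after the values were seen and were not tested.

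**Figure D3:**
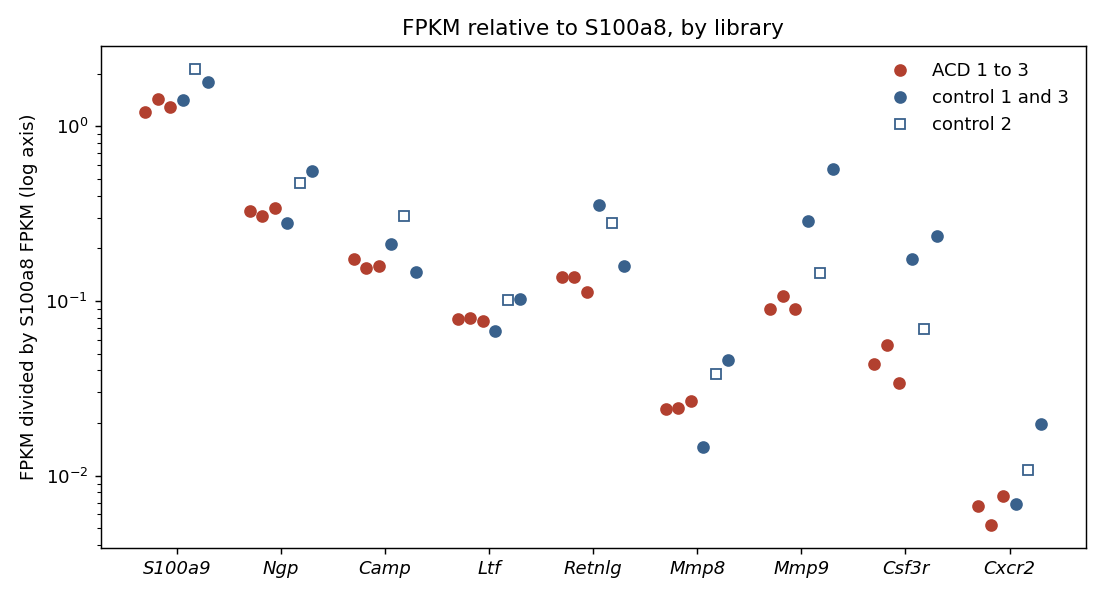
FPKM of each gene divided by that of S100a8 in the same library, on a log axis (ACD red, controls 1 and 3 blue, control 2 open square). The ACD libraries lie close together, from 0.0767 to 0.0803 for Ltf, and the controls spread most for Mmp9 and Csf3r.

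Haemoglobin messages, which come from red cells and their precursors, were set beside them as a measure of blood in each cord. Hba-a1, Hba-a2, Hbb-bs and Hbb-bt share 53.2% to 89.3% of their 50-base words with other genes, so they were summed. The sum was 475, 763 and 551 FPKM in ACD 1 to 3, against 98.1, 275 and 384 FPKM in controls 1 to 3. Every ACD value lay above every control value, with means of 596 ± 149 and 252 ± 144 FPKM (SD, n = 3 each; exact permutation test, two-sided, p = 0.1, the smallest that 3 against 3 allow). Singly, Hbb-bs (166, 288 and 170 FPKM in ACD cords, against 24.6, 91.5 and 100 in control cords) and Hba-a1 (254, 416 and 339, against 52.9, 132 and 214) did not pass (limma, adjusted p = 0.131 for each). Hbb-bt stood at 28.9, 35.7 and 24.1, against 7.06, 23.2 and 22.8, and Hba-a2 at 25.7, 24.0 and 18.1, against 13.6, 28.7 and 47.2.

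The neutrophil messages and haemoglobin ordered the libraries differently. S100a8 and S100a9 together stood at 80.6, 75.8 and 96.4 FPKM in ACD cords, against 20.3, 82.0 and 18.8 in control cords. ACD 2 had the most haemoglobin of all libraries and the least S100a8 and S100a9 of the 3 ACD libraries. Control 3 had more haemoglobin than control 2 (384 against 275 FPKM) and less S100a8 and S100a9 (18.8 against 82.0). Ngp, Camp and Ltf together gave 21.2, 16.8 and 24.3 FPKM in ACD cords, against 4.73, 23.0 and 5.40 in control cords, with the same 2 contrasts.

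Set per 100 FPKM of haemoglobin, the 10 genes together came to 23.8, 13.5 and 24.0 FPKM in ACD cords, against 32.7, 43.3 and 8.11 in control cords. The ACD libraries all lay within the control range. For S100a8 alone the values were 7.69, 4.07 and 7.65 in ACD cords, against 8.60, 9.50 and 1.75 in control cords, with means of 6.47 ± 2.08 and 6.62 ± 4.24. With the log2 haemoglobin sum as a term in the fit, the S100a8 difference was 1.55 (SE 0.78; limma, adjusted p = 0.441) and that of S100a9 0.79 (SE 0.91; limma, adjusted p = 0.743). Haemoglobin and group move together in these libraries, so such a fit separates them poorly, and the part of blood in the differences was not tested further.

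**Figure D4:**
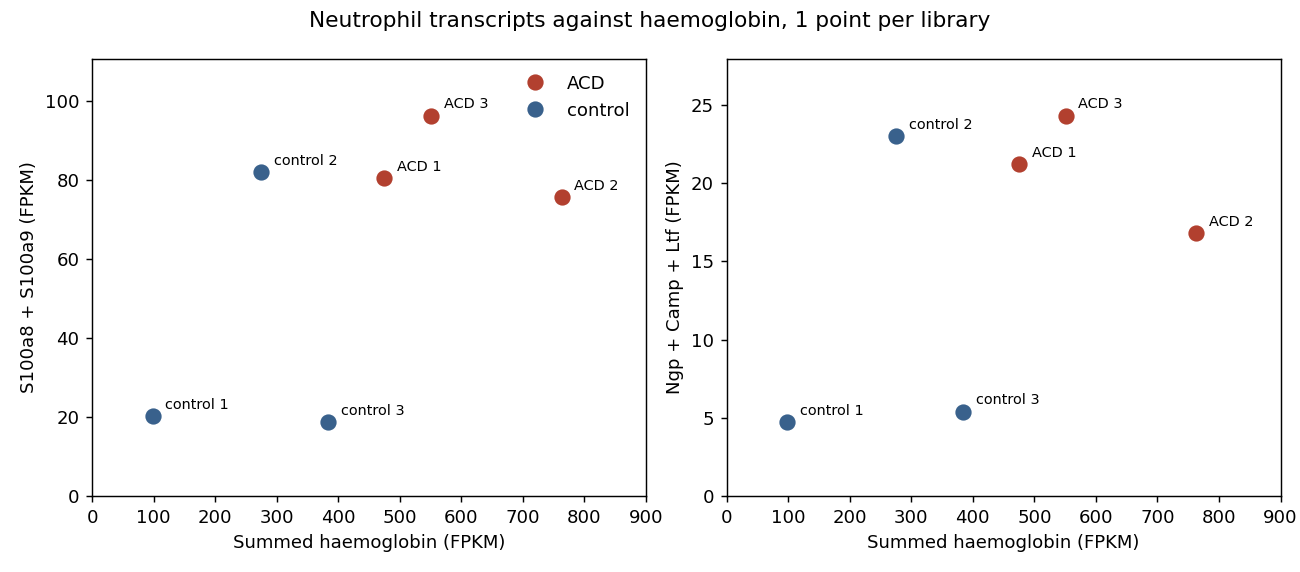
Summed haemoglobin FPKM (x axis) against the summed FPKM of S100a8 and S100a9 (left) and of Ngp, Camp and Ltf (right), 1 point per library. Control 2 has 275 FPKM of haemoglobin and 82.0 of the alarmins, and control 3 has 384 and 18.8.

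The 6 genes listed under the azurophil granules did not share 1 order of libraries. Mpo, myeloperoxidase, had 0.354, 0.346 and 0.351 FPKM in ACD cords, against 0.0345, 0.157 and 0.0674 in control cords, or 21, 24 and 22 reads against 2, 10 and 4. Ctsg, cathepsin G, had 5, 10 and 12 reads in ACD libraries, against 0, 1 and 2 in controls. Elane, neutrophil elastase, had 0.762, 0.502 and 1.28 FPKM in ACD cords, against 0.240, 0.492 and 0.176 in control cords, or 13, 10 and 23 reads against 4, 9 and 3. Prtn3, proteinase 3, had 0.766, 0.741 and 0.821, against 0.512, 0.559 and 0.499. In these 4 of the 6 azurophil genes listed every ACD value lay above every control value, beside 13.1% of all genes tested, and for Elane a single read separated ACD 2 from control 2. Fcnb had 1, 4 and 8 reads in ACD libraries, against 0, 3 and 0 in controls, and Ms4a3 2, 0 and 3 reads, against 0, 4 and 0, with control 2 highest. Of the 6 genes 5 were tested (all but Ms4a3) and none passed; the smallest adjusted p was that of Ctsg (log2 difference 1.88, SE 0.42; limma, adjusted p = 0.0553). The median of the 5 was 1.23, and without control 2 none passed either.

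Of 28 further genes expressed by neutrophils 21 were tested, 19 of them with a difference above 0 and none past the threshold (median 0.45). The smallest adjusted p was that of Pglyrp1, a peptidoglycan-binding granule protein, with 8.47, 6.78 and 5.98 FPKM in ACD cords, against 3.89, 4.22 and 5.02 in control cords (0.67, SE 0.15; limma, adjusted p = 0.0531). Lcn2, a lipocalin of the specific granules that astrocytes and vessels also make, had 3.71, 7.02 and 5.15 FPKM in ACD cords, against 0.856, 2.36 and 0.462 in control cords (limma, adjusted p = 0.0655). Unlike S100a9 it was highest in ACD 2, and control 2 lay below each ACD library. Without control 2, Lcn2 was the 1 gene of this list that was called higher (2.83; limma, adjusted p = 0.0261). With another library left out, the adjusted p of Lcn2 reached up to 0.182. Ly6g, the surface marker by which mouse neutrophils are identified, had 7, 10 and 9 reads in ACD libraries, against 3, 10 and 1 in controls. Chil3, a chitinase-like protein of granulocytes and monocytes, had 2.93, 2.30 and 3.92 FPKM in ACD cords, against 1.20, 5.31 and 0.424 in control cords, so control 2 was the highest library, as for Camp and Retnlg.

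**Figure D5:**
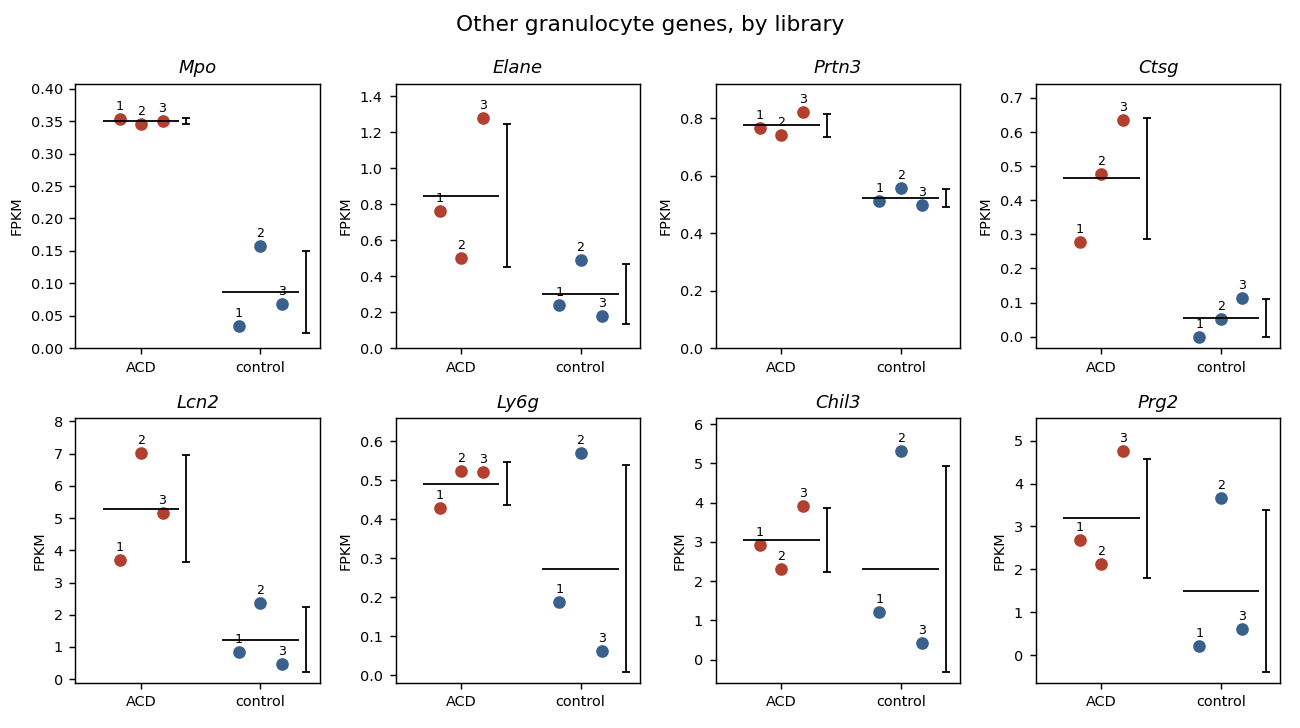
FPKM of 8 other granulocyte genes in each library (points, numbered by replicate; ACD left, control right), with the group mean (line) and SD (bar, n = 3 each). Control 2 lies below the ACD libraries for Mpo (0.157 FPKM), Elane, Prtn3, Ctsg and Lcn2, and among or above them for Ly6g, Chil3 and Prg2.

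The pattern of control 2 within or above the ACD range and controls 1 and 3 below it, defined after the values were seen, was present in 7 of the 10 genes (all but S100a8, Mmp9 and Csf3r), beside 5.86% of all genes tested. It was present in 5 of the 21 further neutrophil genes, in 1 of the 5 tested genes of the azurophil list (Fcnb) and in none of the 4 haemoglobin genes. It was also present in 3 of 7 other S100 genes, 3 of 8 red cell precursor genes and 3 of 6 eosinophil, basophil and mast cell genes. It was present in 1 of 7 monocyte genes (Chil3, also in the neutrophil list), 1 of 8 microglia genes, 1 of 6 alarmin receptor and adaptor genes and 1 of 12 cord markers. None of 13 metalloproteinase and inhibitor genes, 7 border macrophage, 5 platelet, 5 B-lineage, 3 T cell or 3 recruiting ligand genes showed it. Prg2, the major basic protein of eosinophil granules, had 2.68, 2.12 and 4.76 FPKM in ACD cords, against 0.212, 3.66 and 0.619 in control cords, and Epx, eosinophil peroxidase, 0.463, 0.415 and 0.679, against 0.0864, 0.492 and 0.232. Neither passed (limma, adjusted p = 0.295 and 0.290), and without control 2 Prg2 was called higher (2.72, adjusted p = 0.0492). With another library left out, the adjusted p of Prg2 reached up to 0.538.

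Markers of other blood, marrow and cord cells were also tested for a difference between ACD and control. In monocytes none of 7 genes passed, the smallest adjusted p being that of Ly6c2 (limma, adjusted p = 0.132). Ly6c2 had 0.968, 1.05 and 1.40 FPKM in ACD cords, against 0.0647, 0.805 and 0.210 in control cords. It was called without control 2 (2.44, adjusted p = 0.0341), and with another library left out its adjusted p reached up to 0.307. Of the red cell precursor genes none of 8 tested passed, with Alas2, the haem synthesis enzyme of red cells, at 6.17, 9.06 and 6.78 FPKM in ACD cords, against 2.02, 4.50 and 5.38. Its order of libraries was that of the haemoglobin sum throughout, with ACD 2 highest and control 1 lowest. None of 5 tested platelet genes passed (Gp9, adjusted p = 0.126), none of 5 B-lineage genes (Cd79a, adjusted p = 0.202), none of 3 T cell genes (Lck, adjusted p = 0.785) and none of 7 border macrophage genes (Lyve1, adjusted p = 0.115), all by limma. Of 8 microglia genes Tmem119 (0.53, adjusted p = 0.0394) and Olfml3 (0.57, adjusted p = 0.0384) rose. Both calls were lost without any 1 library other than control 3 (adjusted p of 0.0554 to 0.131), after TPM scaling (adjusted p = 0.0620 and 0.0616), without a filter (0.0641 and 0.0634) and with the haemoglobin covariate (0.187 and 0.178). The summed FPKM of the microglia list was 112, 110 and 104 in ACD cords, against 85.3, 103 and 91.9 in control cords. Whether any of these cells contributed to the values of the 10 genes was not tested.

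The signals that draw neutrophils or are read through the alarmin receptors showed no change that passed. Of 11 recruiting cytokines and chemokines 3 were above the filter, and Cxcl3 and Il17a were listed at 0 in all 6 libraries. Cxcl1, a ligand of Cxcr2, had 2, 13 and 14 reads in ACD libraries, against 1, 2 and 4 in controls (0.99, SE 0.53; limma, adjusted p = 0.323). None of 6 receptor and adaptor genes for the alarmins passed: Tlr4, the Toll-like receptor that binds S100A8 and S100A9, had 0.560, 0.480 and 0.384 FPKM in ACD cords, against 0.415, 0.426 and 0.384, and the smallest adjusted p was that of the adaptor Myd88 (0.26; limma, adjusted p = 0.293). Of 11 other S100 genes 7 were tested and S100a6, a calcium-binding protein of glia and connective tissue, rose to 20.5, 20.3 and 21.3 FPKM in ACD cords, against 13.1, 16.1 and 11.4 in control cords (0.62, SE 0.12; limma, adjusted p = 0.0384). It was the 1 gene of that list that passed, and its call held without control 2 (adjusted p = 0.0245) but not without any other 1 library (adjusted p of 0.0559 to 0.129), without a filter (0.0620) or with the haemoglobin covariate (0.235). None of 13 tested genes of other matrix metalloproteinases and their inhibitors passed (median 0.10, smallest adjusted p 0.224 for Timp4, by limma).

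By the mean of S100a8 and S100a9 on the log2 scale, the 5 genes outside the 10 that were closest in pattern over the 6 libraries, among those with a mean of at least 1 FPKM, were mt-Tv (Pearson r = 0.994), Slc25a14, Mrpl46, Tnks2 and Ap1s1 (r = 0.986 each). Of these, mt-Tv, a mitochondrial transfer RNA, had 1.67, 2.15 and 2.38 FPKM in ACD cords, against 0, 1.56 and 0 in control cords. These are 2, 3 and 3 reads in ACD libraries and 0, 2 and 0 in controls, at or under the floor of 3 reads, so its r rests on very few reads. Slc25a14 had 12.7, 12.3 and 13 FPKM in ACD cords, against 10.6, 13 and 10.5, so controls 1 and 3 were the lowest libraries there as well, over a much smaller range. Among the 10 genes themselves Ltf reached r = 0.993, Ngp 0.966, Camp 0.964 and Mmp8 0.938. Cxcr2 stood at 0.853, Retnlg at 0.838, Mmp9 at 0.400 and Csf3r at 0.267. Of genes outside the 10 with a mean of at least 1 FPKM, 40 were at least as close as Ngp and 46 as Camp. Prg2 reached 0.941 and S100a6 0.935, while the haemoglobin gene Hbb-bs stood at 0.703 and Hba-a1 at 0.606. These values rest on 6 libraries that share their group difference and are given as a description only.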

How the data were processed

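RNA of the cervical cord in 6 libraries, 3 from ACD and 3 from control mice, was analysed as deposited. The deposited values are FPKM, 1 table per library; featureCounts 1.5.0-p3, HISAT2 2.0.5, mm10 and DESeq2 1.16.1 are listed, without the role of each, per the submitters' processing notes. The sources used here give no kit, strand setting or annotation release. Symbols, exon lengths and coordinates came from GENCODE M21 (GRCm38), and promoters from RefSeq (GRCm38.p6). FPKM times exon length gave whole reads within 0.05 of a read for 96.8% of values above 0, which gave depth and reads per gene. At 2 kb, 1 read is worth 0.0247 to 0.0296 FPKM and a count of 0 allows 3 reads, or 0.0741 to 0.0887 FPKM, for counting error only.

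The fit was limma 3.58.1 in R 4.3.3 (robust, with a mean-variance trend) on log2(FPKM + 0.1), keeping a mean over all libraries of 0.1 FPKM or more, adjusted by Benjamini-Hochberg over all 21369 genes with a threshold of 0.05. It was tested on simulated data with the same small spread between replicates for every gene. The spread of S100a8 among the controls was larger, so that test does not cover it. All differences are ACD minus control, and the scale understates changes of low genes. All 10 genes were above the filter. Named besides them were the haemoglobin genes, up to 4 passing genes of each list or the one with the smallest p, and the 5 closest in pattern; other genes were chosen after their values were seen. The genes and lists were chosen with earlier results of these data known. Ahsp was not matched. Each library was taken as 1 mouse, and p-values measure the spread between these libraries. No label gives a batch. Alternatives were other pseudocounts and filters, TPM scaling, voom on recovered reads, a replicate block, haemoglobin as a covariate, and each library left out.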

Additional observations from a re-analysis of the deposited data

How the results depend on the processing

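The count of 0 among the 10 genes held with all 6 libraries under every other setting tried (pseudocounts 1 and 0.01, no filter, a filter at a mean of 1 FPKM, TPM scaling, voom, replicate block and haemoglobin covariate); a filter at 1 FPKM left 8 of the 10. With 1 library left out it was 0 to 5, the 5 being without control 2. Over all genes the count of 927 became 556 without a filter, with 31204 genes tested. It was 180 to 627 with 1 library left out, depending on the library, 1628 with voom and 8 with the haemoglobin covariate. The causes of these changes were not tested. With the replicate block the count was 181, and the calls of S100a6, Gfap, Tmem119 and Olfml3 were lost (limma, adjusted p of 0.0845 to 0.0949). Same-numbered libraries did not deviate together over all genes tested (r = -0.028, 0.015 and 0.003). A correlation over all genes cannot show whether the numbers pair the mice, and no label says so. Mmp9 turned to -0.02 after TPM scaling, -0.36 with the haemoglobin covariate and lay at -0.13 to 0.19 with 1 library left out. Csf3r lay at -0.10 to 0.05 and Retnlg at -0.00377 to 1.32. The summed haemoglobin kept its direction, with log2 ratios of means of 0.86 to 1.68 with 1 library left out and 1.14 after TPM scaling, against 1.24. Cxcr2, Elane, Ctsg, Fcnb, Ms4a3, Ly6g, Gp9, Cd79a, Cxcl1 and mt-Tv rested on about 11.2 mean reads or fewer, which limits their precision.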

Other observations

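Cd36, a scavenger receptor of fat cells, capillary endothelium and macrophages that was listed among the alarmin receptors, had 0.161, 0.165 and 0.244 FPKM in ACD cords, against 19.9, 0.674 and 0.112 in control cords. The value of control 1 rested on 1208 reads, against 45 and 7 in controls 2 and 3. Control 1 had the least haemoglobin of the 6 libraries and the lowest or second lowest value of each of the 10 neutrophil genes.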
